A study of Mus musculus with 18 samples.

Results

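Complex I, or NADH:ubiquinone oxidoreductase, is the entry point of electrons from NADH into the mitochondrial respiratory chain. The genes described here are those on the array whose symbol starts with Ndufa, Ndufb, Ndufc, Ndufs or Ndufv. The rule found 74 probe sets for 39 of the 12393 genes measured, and a gene was represented by its probe set of highest mean log2 signal. Of the 39 genes, 6 encode core subunits, 27 encode accessory subunits and 5 encode assembly factors of the Ndufaf family. Ndufa4, the remaining gene, carries a complex I name but its product is now placed in complex IV. Subunits encoded by mitochondrial DNA were not analysed here. All 39 genes passed the filter on low signals.

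RNA came from motor neurons that had been laser-captured from frozen lumbar spinal cord, 1000 neurons from each animal, and was hybridised to 1 single-colour array per mouse. G93A mice carry the human SOD1 gene with the G93A mutation and serve as a model of the inherited form of amyotrophic lateral sclerosis, while the control groups were littermates without the transgene. Mice were 60, 90 or 120 days old, which gives 6 groups of 3 animals and 18 arrays. The labels name neither strain nor sex, and the transgene is not limited to motor neurons.

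Complex I has an L shape. Its matrix arm binds NADH and passes electrons along a chain of iron-sulfur clusters to ubiquinone, and its membrane arm pumps protons. The core subunits carry out this chemistry, the accessory subunits surround them and are needed for assembly or stability, and assembly factors act on the growing complex and are absent from the finished one. Motor neurons have long axons and a high demand for ATP, and swollen or vacuolated mitochondria are a known feature of motor neurons in SOD1 G93A mice.

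Ndufab1 and Ndufv1 were the members that changed in G93A motor neurons at 120 days against both younger ages, in opposite directions, and their promoter stretches are shown for that reason. Each is the 250 bases before the annotated start from RefSeq on mouse build GRCm38.p6, read 5′ to 3′ on the gene's strand. Both genes lie on the minus strand, Ndufab1 at chr7:122101849-122102098 and Ndufv1 at chr19:4012756-4013005. Capitals mark a match to the SP1 letters GGGCGG on either strand.
Ndufab1: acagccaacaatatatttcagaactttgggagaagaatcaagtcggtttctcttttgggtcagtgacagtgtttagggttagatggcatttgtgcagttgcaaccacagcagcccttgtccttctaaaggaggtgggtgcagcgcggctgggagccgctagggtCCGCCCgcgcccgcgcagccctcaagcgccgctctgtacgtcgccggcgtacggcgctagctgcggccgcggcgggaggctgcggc
Ndufv1: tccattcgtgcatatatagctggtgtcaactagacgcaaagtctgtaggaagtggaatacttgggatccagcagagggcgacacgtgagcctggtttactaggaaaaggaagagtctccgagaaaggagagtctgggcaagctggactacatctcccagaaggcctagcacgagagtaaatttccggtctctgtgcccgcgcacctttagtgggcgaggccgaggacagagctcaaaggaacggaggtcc

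Promoter windows of 300 bases, 250 before the start and 50 after it, were found for 36 of the 39 genes. Ndufa2, Ndufb9 and Ndufs1 had no entry. Letters of 4 motifs of factors known to act on nuclear genes of mitochondrial proteins were searched on both strands. The SP1 letters were in 18 of 36 windows (50%), against 35.9% of 27025 windows of all genes. The YY1 letters AANATGGCG were in 5 of 36 (13.9%), those of Ndufa9, Ndufb11, Ndufc1, Ndufs4 and Ndufs7, against 2.51% of all windows. The NRF1 letters GCATGCGC were in 4 of 36 (11.1%), those of Ndufa6, Ndufa8, Ndufaf4 and Ndufaf5, against 2.8%. The GABPA letters CCGGAAG were in 5 of 36 (13.9%), those of Ndufaf1, Ndufb6, Ndufb7, Ndufs3 and Ndufs8, against 9.12%. Matches of different motifs overlapped in 1 of the 36 windows. Of the genes with YY1 letters, Ndufs7 rose and Ndufa9 fell from 90 to 120 days in G93A mice, and Ndufb11, Ndufc1 and Ndufs4 did not pass the test. A link between motif letters and signal was not tested.

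Correlations between arrays of a group ranged from 0.641 to 0.838 over the tested probe sets, and those between groups from 0.539 to 0.864. Replicates 2 and 3 of the controls at 60 days had the lowest mean correlation with the other arrays, 0.633 and 0.613, and calls and 60-day differences that rest on this group are given with and without them. That setting was chosen after seeing the data and leaves a lone control at 60 days, which is taken to vary like the other groups. The mean log2 signal of 18 hybridization-control probe sets differed between groups. On the G93A arrays it was 8.96 to 9.33 at 90 days and 11.34 to 11.99 at 120 days. It also differed between the genotypes at 60 days, with 10.70 to 11.45 in controls and 7.75 to 10.68 in G93A mice, without overlap. The genotypes overlapped in it at 90 and 120 days. With this level in the fit the 114 probe sets past the threshold at 60 days became 1. The log2 ratio of 3′ to 5′ Gapdh signal, a sign of RNA length, also differed between the genotypes. At 60 days it was 3.36 ± 0.33 (SD, n = 3) in controls and 4.14 ± 0.43 in G93A mice, without overlap. At 90 days it was 3.25 ± 0.86 and 4.39 ± 0.30, and at 120 days 4.48 ± 0.26 and 4.94 ± 0.54. With this ratio in the fit the 114 probe sets past the threshold at 60 days became 10. Prph, a motor neuron marker, had a signal between 101.6 and 590.4 on the 18 arrays, while Slc18a3, the vesicular acetylcholine transporter, lay between 2.7 and 53.2 and Isl1 between 15.1 and 115.4, where array medians ran from 37 to 64.

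No complex I gene passed the test between the genotypes at 60, 90 or 120 days. At 60 days 0 of 39 genes passed an adjusted p of 0.05 in limma, against 0.688% of all tested probe sets, and 12 of 39 had an unadjusted p below 0.05 (4 higher in G93A, 8 lower), where the share of all probe sets was 12.6% (7.85% higher, 4.73% lower). The 3 G93A and 3 control arrays did not overlap for 15 genes (38.5%), of which 11 were lower in G93A, against 18.5% of all probe sets (10.6% lower). At 90 days 0 of 39 genes passed, against 0% of all probe sets, with 3 genes at an unadjusted p below 0.05 (4.56% of all probe sets) and 10 genes without overlap (25.6%, against 11.5%). At 120 days 0 of 39 passed, against 0.0241%, with 8 genes at an unadjusted p below 0.05 (1 higher, 7 lower, against 12.2% of all probe sets, 6.22% higher and 5.98% lower) and 12 without overlap (30.8%, 10 of them lower, against 16.1%, 6.2% lower). The median log2 difference of the 39 genes was -0.05, -0.16 and -0.15 at the 3 ages, beside -0.07, -0.01 and 0.07 for all genes that passed the filter.

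**Figure D1:**
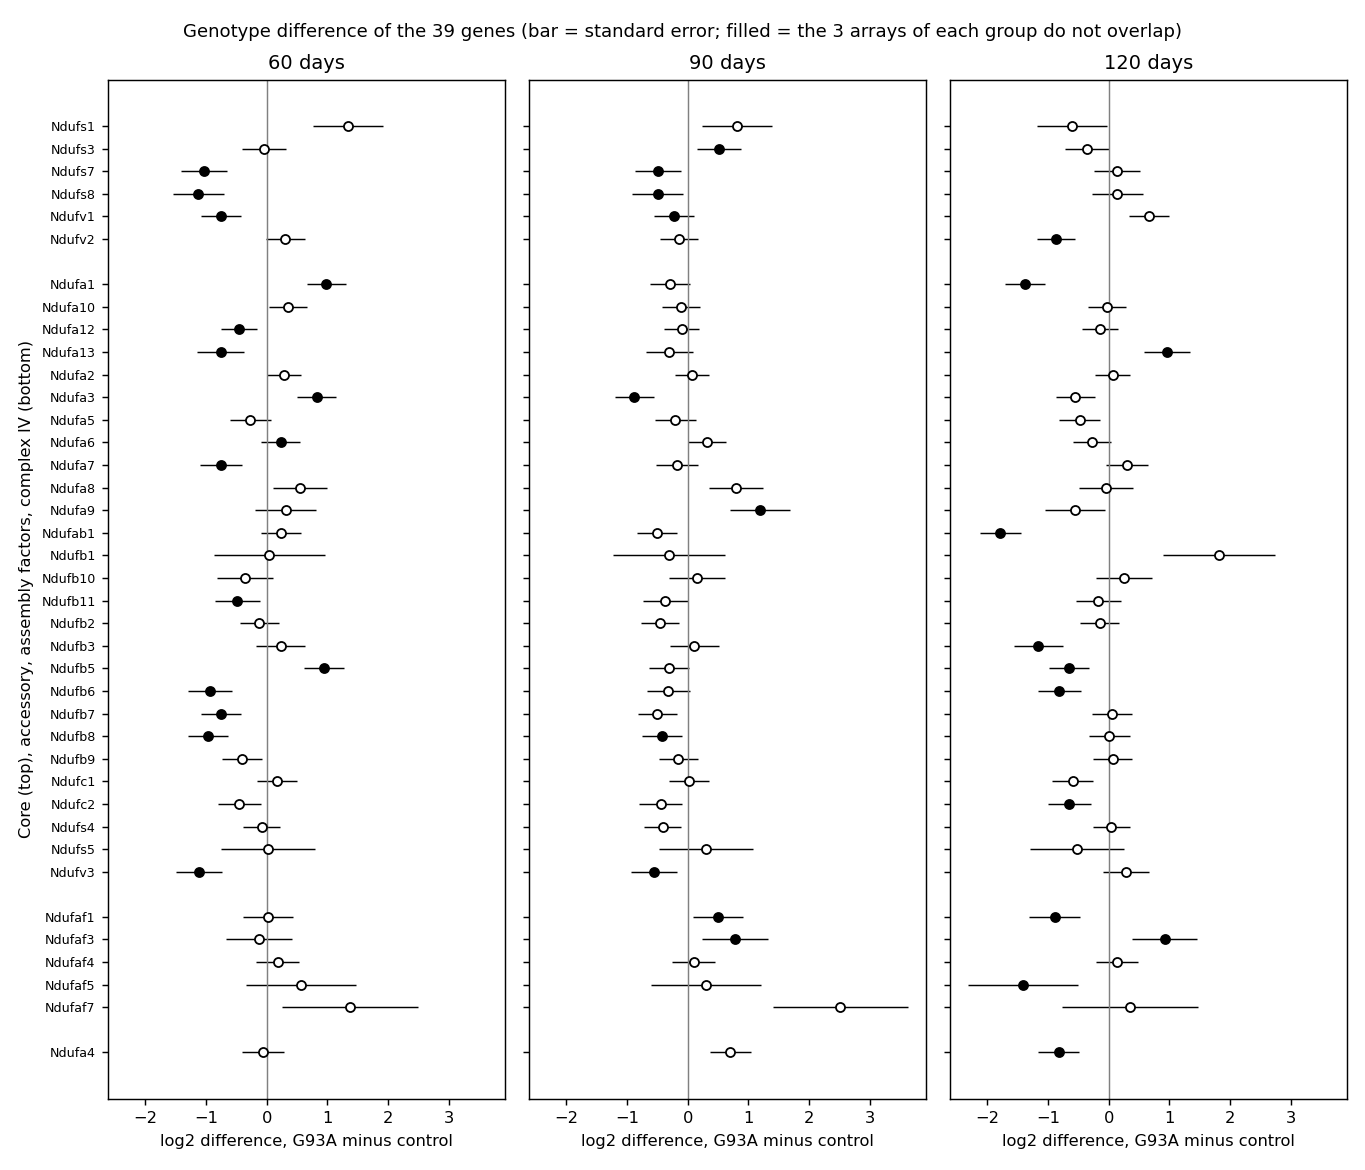
The log2 difference, G93A minus control, of each of the 39 genes at 60, 90 and 120 days, in panels from left to right, with its standard error as a bar (3 animals per group) and genes ordered by class from top to bottom. Filled points mark genes whose 3 G93A and 3 control arrays do not overlap, 15, 10 and 12 genes at the 3 ages, and none passed an adjusted p of 0.05.

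Of the core subunits, Ndufs7 and Ndufs8 carry the last iron-sulfur clusters before ubiquinone. Ndufs7 signals at 60 days were 2697.5, 2860.3 and 5033.6 in controls and 1025.8, 2364.6 and 1888.1 in G93A mice, a log2 difference of -1.03 ± 0.38 (SE, n = 3 per group) with an adjusted p of 0.22 in limma. Ndufs8 signals at that age were 10676.5, 10859.7 and 15808.5 in controls and 3433.7, 8440.6 and 6062.1 in G93A mice, a difference of -1.13 ± 0.42 (adjusted p = 0.23 in limma). Both genes were lower on every G93A array than on every control array at 60 days. Without the 2 controls of lowest correlation the differences were -0.70 and -0.93, and with the hybridization controls in the fit -0.37 and -0.42. At 120 days the same groups overlapped for both, with differences of 0.13 ± 0.38 and 0.14 ± 0.42. Ndufs8 is measured by 6 probe sets, whose signs differed at all 3 ages.

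Ndufv1 holds the flavin that takes electrons from NADH, and Ndufv2 sits beside it with an iron-sulfur cluster. Ndufv1 signals at 60 days were 2847.7, 3308.7 and 3803.2 in controls and 1630.5, 2540.6 and 1806.5 in G93A mice (-0.75 ± 0.32, adjusted p = 0.32 in limma), without overlap, and without the 2 controls of lowest correlation the difference was -0.54. At 120 days they were 2045.7, 3889.1 and 3988.3 in controls and 7727.7, 3726.6 and 4378 in G93A mice (0.66 ± 0.32, adjusted p = 0.41 in limma), with overlap. Ndufv2 signals at 120 days were 2462, 3688.7 and 2122.3 in controls and 1421.8, 1296.4 and 1708.5 in G93A mice (-0.87 ± 0.32, adjusted p = 0.27 in limma). Every G93A array lay below every control array for Ndufv2 at 120 days, and all 3 of its probe sets were lower in G93A at that age. At 60 days its difference was 0.31 ± 0.32, and 0.03 without the 2 controls of lowest correlation.

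Ndufs1, the largest core subunit and the carrier of several clusters, had a low signal with a wide spread. At 60 days its signals were 70.6, 30.2 and 22.1 in controls and 158, 81.5 and 59.4 in G93A mice (1.34 ± 0.58, adjusted p = 0.32 in limma), and the groups overlapped. Without the 2 controls of lowest correlation that difference was 0.37. Its difference was 0.81 ± 0.58 at 90 days and -0.60 ± 0.58 at 120 days, and with the Gapdh 3′ to 5′ ratio in the fit the value at 90 days was -0.31. Ndufs3, a core subunit of the ubiquinone-binding part, differed by -0.05 ± 0.36, 0.51 ± 0.36 and -0.35 ± 0.36 at 60, 90 and 120 days. Its signals at 90 days, 355.5, 351.5 and 283.2 in controls and 490.8, 396.4 and 524 in G93A mice, did not overlap, while the sign at 60 days changed without the 2 controls of lowest correlation (0.30) and with median centring (0.18).

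Among accessory subunits, Ndufa1 turned direction with age and passed the test of that change given below. Ndufb5, Ndufa13 and Ndufa3 also turned direction between ages, without passing that test. Ndufa1 is an X-linked single-pass protein of the membrane arm that is needed for assembly. At 60 days its signals were 3025.8, 2143.2 and 1707.8 in controls and 3864.1, 4481.3 and 4919.9 in G93A mice, a difference of 0.98 ± 0.32 (adjusted p = 0.17 in limma). At 90 days they were 5284.5, 4524.9 and 6642.3 in controls and 4823.1, 3812.1 and 4711 in G93A mice, with overlap. At 120 days they were 4968, 7890.1 and 4005 in controls and 1999.4, 2591 and 1714.4 in G93A mice, a difference of -1.38 ± 0.32, or 2.60-fold lower (adjusted p = 0.10 in limma). G93A arrays were thus all above the controls at 60 days and all below them at 120 days. Without replicate 3 of the controls at 120 days the difference at that age was -1.60 (adjusted p = 0.029 in limma), and with the hybridization controls in the fit it was -1.38 (adjusted p = 0.047), so that 2 settings take it past the threshold. At 60 days quantile normalization does so, with a difference of 1.20 (adjusted p = 0.038 in limma), while without the 2 controls of lowest correlation it was 0.54 (adjusted p = 0.95).

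Ndufab1 is the mitochondrial acyl carrier protein, which serves fatty acid and lipoate synthesis as well as complex I. Its signals at 60 days were 187.2, 247.6 and 301.9 in controls and 246.1, 309.1 and 300.8 in G93A mice, and at 90 days 801.1, 373.4 and 402 in controls and 308, 285.5 and 475.9 in G93A mice. The genotypes overlapped at both ages. At 120 days the signals were 235, 231.3 and 219.9 in controls and 80.2, 63.6 and 56.8 in G93A mice, a difference of -1.79 ± 0.34, or 3.46-fold lower, with an adjusted p of 0.0505 in limma. This was the smallest adjusted p among the 39 genes at any age for a genotype difference. It passed 0.05 in 8 of 30 alternatives, 4 of which changed the scale, a covariate or the pair of controls of lowest correlation, and missed it in the others, with 0.59 for the mean of all its probe sets. The other 4 left out replicate 2 or 3 of the controls at 60 days (adjusted p = 0.040 and 0.047 in limma), replicate 1 of the controls at 90 days (0.042) or replicate 3 of the controls at 120 days (-1.82, adjusted p = 0.022 in limma). A lower-signal probe set of the gene differed by -1.11 ± 0.66 at 120 days. The mean also takes in a dim probe set with signals of 1.1 to 20.6, below the median of every array.

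**Figure D2:**
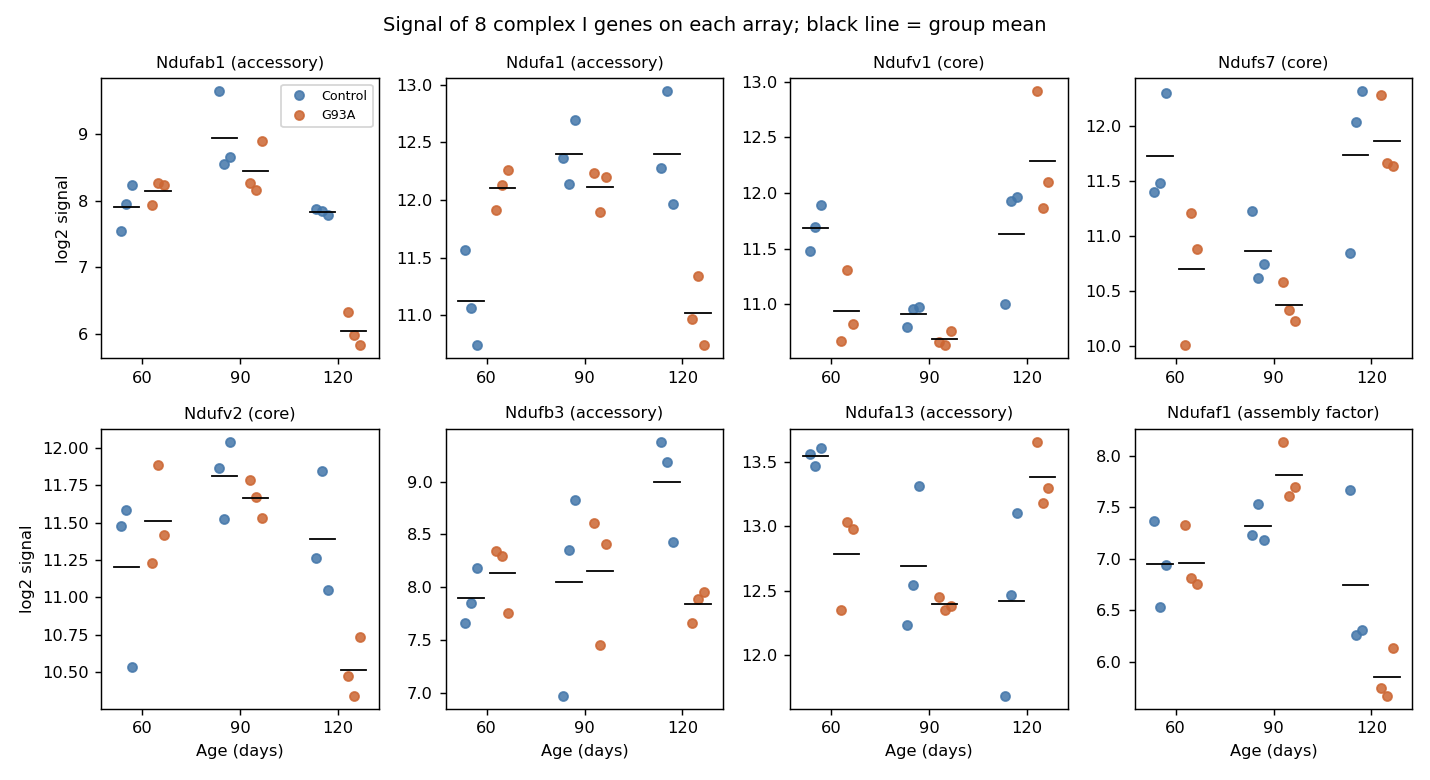
The log2 signal of 8 complex I genes on each of the 18 arrays, by age in days, with controls in blue, G93A mice in orange and a black line at each group mean (3 arrays). The G93A arrays of Ndufab1 at 120 days, with signals of 56.8 to 80.2, lie below every other array, and those of Ndufa1 lie above the controls at 60 days and below them at 120 days.

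Other accessory subunits were higher in G93A at 60 days, all without passing the test. Ndufb5, a membrane-arm subunit, had signals of 1636.6, 1213.8 and 555.2 in controls and 2244.7, 2050.3 and 1720.1 in G93A mice at 60 days (0.95 ± 0.33, adjusted p = 0.20 in limma), and 1496.3, 2394.8 and 1485.8 against 947.5, 1042.9 and 1385.6 at 120 days (-0.65 ± 0.33). Neither age showed overlap, and the direction was opposite. The difference at 60 days was 0.50 without replicate 3 of the controls at that age and 0.28 without both controls of lowest correlation. Ndufa3, another membrane-arm subunit, had 592.1, 442 and 378.3 in controls and 1193.2, 742.1 and 617.9 in G93A mice at 60 days (0.82 ± 0.32, and 0.47 without those 2 controls). At 90 days it had 745.5, 917.4 and 526.8 in controls and 318.6, 522.4 and 346.5 in G93A mice (-0.88 ± 0.32, adjusted p = 0.997 in limma), again without overlap and again the other way.

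Ndufa13, a membrane-arm subunit also described as a cell death regulator, ran in the opposite order. Its signals at 60 days were 12042.5, 11335.7 and 12479.6 in controls and 5207.7, 8369.5 and 8082.4 in G93A mice (-0.76 ± 0.38). That difference was -0.77 without the 2 controls of lowest correlation. With quantile normalization, which gives every array the same distribution of signals, it was 0.01, so its direction was not kept there. At 120 days they were 3287.2, 5672.8 and 8801.8 in controls and 12889.1, 9299.1 and 10080.4 in G93A mice (0.96 ± 0.38, adjusted p = 0.31 in limma). The groups did not overlap at either age, and control signals at 120 days spread widely.

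Ndufv3 and Ndufb8 were the accessory subunits with the smallest p among those lower in G93A at 60 days. Ndufv3, a subunit of the NADH-binding end, had 6711.1, 5812.1 and 9751.4 in controls and 2243.3, 4323.4 and 3893.7 in G93A mice (-1.11 ± 0.38, adjusted p = 0.19 in limma). Ndufb8, of the membrane arm, had 8641.2, 8063.4 and 10484.4 in controls and 3364.4, 6521.3 and 4477.2 in G93A mice (-0.96 ± 0.33, adjusted p = 0.19 in limma). At 90 days Ndufv3 had 4423.6, 3308.6 and 3990.3 in controls and 2497.2, 2387.7 and 3110.3 in G93A mice (-0.55 ± 0.38). Without the 2 controls of lowest correlation the 60-day differences of Ndufv3 and Ndufb8 were -1.0 and -0.91, and with the hybridization controls in the fit -0.56 and -0.58. The groups of Ndufv3 did not overlap at 60 or 90 days, whereas at 120 days its difference was 0.28 ± 0.38.

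At 90 days the genes of smallest p among those without overlap included Ndufa9, a matrix-arm subunit next to the ubiquinone site. Its signals were 469.2, 709.4 and 274.2 in controls and 1422.6, 727.7 and 1048.3 in G93A mice (1.19 ± 0.50, adjusted p = 0.997 in limma). With the Gapdh 3′ to 5′ ratio in the fit the difference was -0.01, so its direction depended on that covariate. Ndufs7 signals at 90 days were 2389.1, 1570.7 and 1713 in controls and 1526.3, 1279.9 and 1196.7 in G93A mice (-0.49 ± 0.38), the lower direction it had at 60 days.

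At 120 days Ndufb3, a membrane-arm subunit, had signals of 665.3, 582.2 and 343.3 in controls and 202.8, 237.2 and 248.6 in G93A mice, a difference of -1.16 ± 0.40 (adjusted p = 0.25 in limma). Ndufa4, the complex IV protein, had 481.5, 727.4 and 742 in controls and 284.4, 418.7 and 390.5 in G93A mice (-0.83 ± 0.34, adjusted p = 0.33 in limma). All G93A arrays lay below all control arrays for both genes. Ndufb6 was lower in G93A without overlap at 60 days (-0.93 ± 0.36, and -0.90 without the 2 controls of lowest correlation) and at 120 days (-0.82 ± 0.36), and it had the lowest mean difference over the 3 ages, -0.69 ± 0.21 (adjusted p = 0.40 in limma). For that mean 0 of 39 genes passed, against 0.0121% of all probe sets, and 8 had an unadjusted p below 0.05, against 7.74%.

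The assembly factors had low signals. Ndufaf1, which acts on the membrane arm, had 150.5, 185.3 and 145 in controls and 281.4, 195.6 and 207.2 in G93A mice at 90 days (0.50 ± 0.42). At 120 days it had 202.8, 76.8 and 79.5 in controls and 53.9, 50.9 and 70.5 in G93A mice (-0.89 ± 0.42, adjusted p = 0.39 in limma). Neither age overlapped, in opposite directions. Ndufaf3, which acts with Ndufaf4 on the ubiquinone-binding part, was higher in G93A without overlap at 90 days, with 58.9, 41.6 and 67.3 in controls and 93.6, 122.1 and 72.9 in G93A mice (0.78 ± 0.54), and at 120 days (0.92 ± 0.54). Ndufaf7 signals ran from 2.8 to 88.5 over the 18 arrays and its standard error, 1.12, was the highest of the 39.

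Core and accessory subunits were not separated by genotype. The median difference of the 27 accessory subunits minus that of the 6 core subunits was 0.32, -0.11 and -0.04 at the 3 ages in order. The value at 60 days was 0.12 with class means in place of medians and -0.19 without the 2 controls of lowest correlation, so its sign rested on those arrays. Per array, the mean log2 signal of accessory minus core subunits was -0.23 ± 0.19 (SD, n = 3) in controls and -0.11 ± 0.10 in G93A mice of 60 days. It was -0.12 ± 0.22 in controls and -0.26 ± 0.09 in G93A mice of 90 days, and -0.47 ± 0.17 and -0.55 ± 0.13 in those of 120 days. The genotypes overlapped at each age. By position, the 14 matrix-arm genes had median differences of -0.18, -0.16 and -0.05 in order of age, and the 18 membrane-arm genes -0.05, -0.30 and -0.16.

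**Figure D3:**
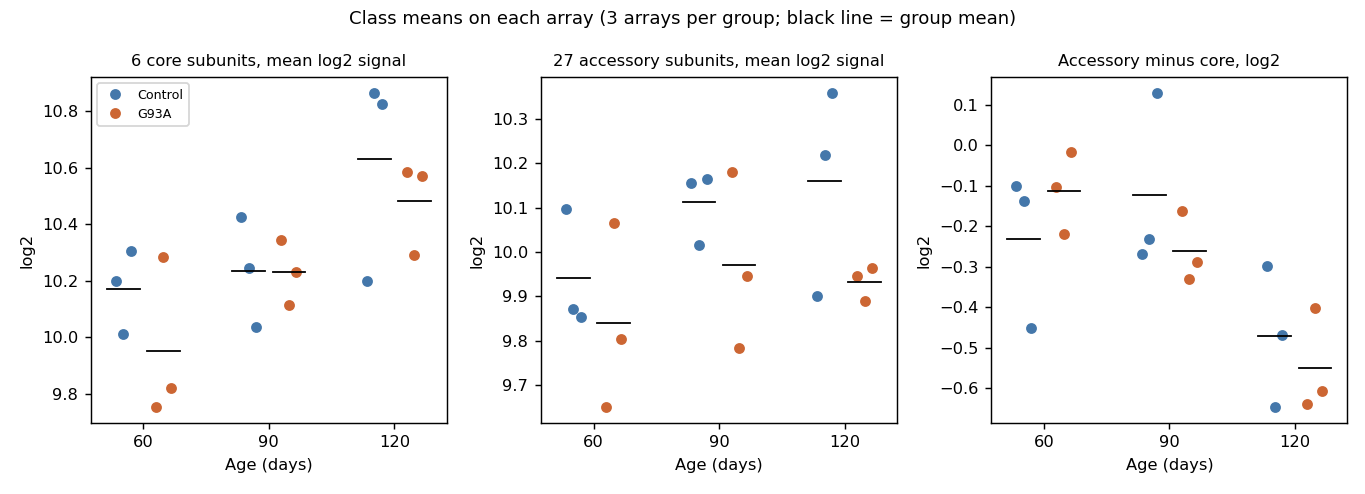
The mean log2 signal of the 6 core subunits (left), of the 27 accessory subunits (middle) and their difference (right) on each of the 18 arrays by age in days, with controls in blue, G93A mice in orange and a black line at each group mean. The genotypes overlap at each age in the right panel, and the means at 120 days, -0.47 and -0.55, are the lowest.

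At 60 and 90 days the members of brightest signal were lower in G93A mice, as were other genes of that brightness. All 9 genes with a mean log2 signal over 12, which were Ndufa12, Ndufa13, Ndufb11, Ndufb7, Ndufb8, Ndufb9, Ndufc2, Ndufs8 and Ndufv3, were lower in G93A at 60 days (median -0.75) and at 90 days (median -0.42). The 69 other genes of that range had medians of -0.65 and -0.34, with 89.9% and 91.3% of them below 0. With median centring 9 and 8 of the 9 were lower (medians -0.52 and -0.27), beside -0.42 and -0.19 for the other genes. With quantile normalization 7 of the 9 were lower at each of these ages (medians -0.17 and -0.20), beside -0.03 and -0.04 for the other genes. That scaling gives every array the same distribution of signals. It draws the median difference of the brightest genes towards 0 by design, so no conclusion on their shift is drawn from it. At 120 days, without further scaling, 6 of the 9 were higher, with a median of 0.05, while 8 of the 9 were lower with median centring. Over the 39 genes, which share the same arrays, the difference and the mean level had a Pearson r of -0.55, -0.62 and -0.02 and a Spearman rho of -0.56, -0.58 and 0.08 at the 3 ages in order, given as a description. The part of probe brightness in the lower members at 60 and 90 days was not tested.

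**Figure D4:**
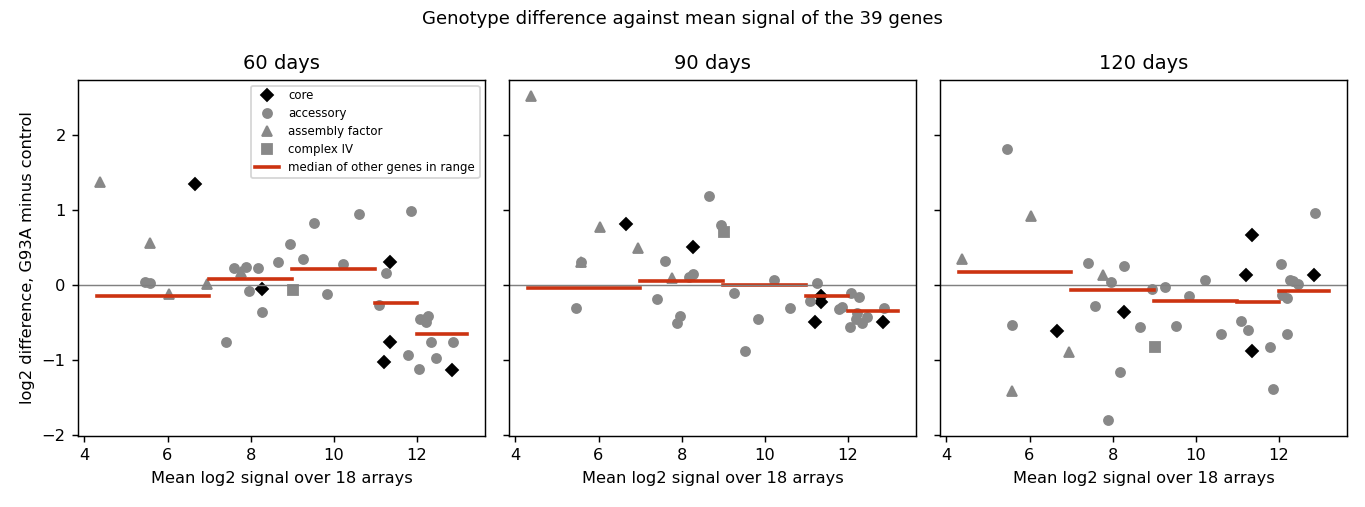
The log2 difference, G93A minus control, of each of the 39 genes against its mean log2 signal over the 18 arrays, at 60, 90 and 120 days; diamonds are core subunits, circles accessory, triangles assembly factors and the square Ndufa4. Red lines give the median of the other genes in each range of signal, and above a signal of 12 both they (-0.65 and -0.34) and all 9 members lie below 0 at 60 and 90 days (7 of the 9 with quantile normalization).

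A change with age in the genotype difference passed the test for Ndufa1 and Ndufab1 between 60 and 120 days. For Ndufa1 the difference at 120 days minus that at 60 days was -2.36 ± 0.46 (adjusted p = 0.0095 in limma), and for Ndufab1 it was -2.03 ± 0.48 (adjusted p = 0.029). These are 2 of 39 genes (5.13%), against 2.02% of all tested probe sets (1.76% lower). A further 12 members had an unadjusted p below 0.05, in all 7 of 39 genes higher and 7 lower. Those higher were Ndufa13, Ndufv1, Ndufv3, Ndufs8, Ndufs7, Ndufa7 and Ndufb8, and those lower, beside the 2 called, were Ndufs1, Ndufb5, Ndufb3, Ndufa3 and Ndufv2. The share of all probe sets at that p was 17.3% (8.07% higher, 9.26% lower). Between 90 and 120 days, and between 60 and 90 days, 0 of 39 genes passed in limma, against 0% of all probe sets each, with 7 and 3 genes at an unadjusted p below 0.05 (10% and 5.35% of all probe sets).

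For Ndufa1 the test held without any single array, and without the 2 controls of lowest correlation the value was -1.92 (adjusted p = 0.16). For Ndufab1 the call was lost without replicate 1 or 2 of the G93A mice at 60 days (adjusted p = 0.059 and 0.068 in limma), replicate 2 of the G93A mice at 120 days (0.051), or replicate 1 or 2 of the controls at 120 days (0.066 and 0.0505), with values between -2.13 and -1.96. Without the 2 controls of lowest correlation its value was -2.39 (adjusted p = 0.072), and with the mean of all its probe sets it was -1.45 (adjusted p = 0.38). Ndufab1 has a lower-signal tested probe set that gave -2.55 ± 0.93 for the same change (adjusted p = 0.15 in limma). The mean also takes in its dim probe set with signals of 1.1 to 20.6.

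Some members rose with age in controls. From 60 to 120 days Ndufa1 rose by 1.28 ± 0.32 (adjusted p = 0.020 in limma), Ndufa3 by 1.70 ± 0.32 (adjusted p = 0.0026) and Ndufs1 by 2.03 ± 0.58 (adjusted p = 0.036), which is 3 of 39 genes (7.69%) against 6.71% of all probe sets (3.87% higher). Ndufa3 signals in controls went from 592.1, 442 and 378.3 at 60 days to 1218.7, 1829.2 and 1537.8 at 120 days, and those of Ndufs1 from 70.6, 30.2 and 22.1 to 141.6, 189.3 and 119. Neither gene's groups overlapped. From 60 to 90 days only Ndufa1 among the 39 passed (1.28 ± 0.32, adjusted p = 0.043), which is 2.56% against 1.61% (1.36% higher), and from 90 to 120 days 0 of 39 passed in limma, against 1.04%, with 10 genes at an unadjusted p below 0.05 (13.6% of all probe sets). Other measures moved in the same comparison: from 60 to 120 days all 8 oligodendrocyte markers were higher in controls (median 1.08, 2 called), with a summed signal of 11673.8 to 14018.4 at 60 days and 23044 to 40547.8 at 120 days. Mbp made up the largest part of that sum. The log2 ratio of 3′ to 5′ Gapdh signal, a sign of RNA length, was 3.36 ± 0.33 (SD, n = 3) and 4.48 ± 0.26 at these ages. With that ratio in the fit Ndufa1 alone passed, Ndufa3 was at 1.57 (adjusted p = 0.069 in limma) and Ndufs1 at 0.93 (adjusted p = 0.56), where the number of all probe sets called went from 1112 to 143. The part of the oligodendrocyte markers was not tested.

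These calls depended on which arrays were kept. Leaving out the 2 controls of lowest correlation leaves a lone control at 60 days, so a smaller change and a smaller group cannot be told apart in a call lost there. Without the 2 controls of lowest correlation 0 of 39 genes passed from 60 to 120 days or from 60 to 90 days, with Ndufa3 at 1.35 (adjusted p = 0.20 in limma), Ndufs1 at 1.06 (adjusted p = 0.56) and Ndufa1 at 0.83 (adjusted p = 0.46). Leaving out a single array, Ndufa1 lost the change to 120 days without control replicate 2 (1.25, adjusted p = 0.056) or 3 (1.08, adjusted p = 0.090) at 60 days or control replicate 2 at 120 days (1.00, adjusted p = 0.087). Ndufs1 lost it without the same 3 arrays (1.90, 1.67 and 1.85, adjusted p = 0.090, 0.13 and 0.098) or control replicate 1 at 120 days (2.05, adjusted p = 0.082). Ndufa3 kept its call without any single array. The change of Ndufa1 from 60 to 90 days was lost without 10 of the arrays left out in turn, which were replicates 2 and 3 of the controls at 60 days, the 3 controls at 90 days, the 3 G93A arrays at 90 days and G93A replicates 1 and 2 at 120 days, with adjusted p between 0.051 and 0.20 in limma.

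In G93A mice Ndufab1 was lower and Ndufv1 higher at 120 than at 60 days. From 60 to 120 days Ndufab1 fell by 2.10 ± 0.34 on the log2 scale (adjusted p = 0.0024 in limma) and Ndufv1 rose by 1.36 ± 0.32 (adjusted p = 0.030), which is 2 of 39 genes (5.13%) against 2% of all probe sets (1% higher, 0.996% lower). Their groups did not overlap between these ages. Control mean log2 signals at 60, 90 and 120 days were 7.91, 8.95 and 7.84 for Ndufab1 and 11.69, 10.91 and 11.63 for Ndufv1. From 90 to 120 days both genes thus moved in controls in the same direction as in G93A mice. For Ndufv1 the call was lost without G93A replicate 1 or 3 at 60 days (1.23 and 1.30, adjusted p = 0.11 and 0.083) or G93A replicate 1 at 120 days (1.05, adjusted p = 0.13), whose signal of 7727.7 was the highest. From 60 to 90 days 0 of 39 genes passed in limma, against 0% of all probe sets, and 7 had an unadjusted p below 0.05 (5.49% of all probe sets).

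From 90 to 120 days 9 of 39 genes changed in G93A mice (23.1%), against 7.65% of all tested probe sets, 3 of them higher (3.34% of all probe sets) and 6 lower (4.3%). The 2 shares were not measured with like precision, since the median standard error was 0.35 for members and 0.69 over all tested probe sets. Those that rose were the core subunits Ndufv1 (1.61 ± 0.32) and Ndufs7 (1.49 ± 0.38) and the accessory subunit Ndufa3 (1.42 ± 0.32). Those that fell were Ndufab1 (-2.39 ± 0.34), Ndufa9 (-1.97 ± 0.50), Ndufaf1 (-1.96 ± 0.42), the core subunit Ndufv2 (-1.15 ± 0.32), Ndufa4 (-1.12 ± 0.34) and Ndufa1 (-1.10 ± 0.32). Adjusted p-values in limma ran from 0.00026 for Ndufab1 to 0.045 for Ndufa4. Ndufv1 and Ndufv2, both of the NADH-binding end, thus went opposite ways. Their control mean log2 signals did so too (10.91 to 11.63 and 11.81 to 11.39), without passing the test. The 3 G93A arrays of each age did not overlap for 23 of the 39 genes (59%), 13 higher and 10 lower, against 31% of all probe sets (15.6% higher, 15.4% lower).

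Ndufs7 signals in G93A mice went from 1526.3, 1279.9 and 1196.7 at 90 days to 4996.1, 3253.3 and 3191.8 at 120 days, and those of Ndufv1 from 1616.9, 1582.4 and 1734.5 to 7727.7, 3726.6 and 4378. Ndufa9 went from 1422.6, 727.7 and 1048.3 to 171.1, 243.2 and 434.8, and Ndufaf1 from 281.4, 195.6 and 207.2 to 53.9, 50.9 and 70.5. Ndufv2 went from 3538.9, 3257.3 and 2967.8 to 1421.8, 1296.4 and 1708.5, and Ndufa4 from 1001.2, 642.1 and 745.4 to 284.4, 418.7 and 390.5. None of these overlapped between the ages. Other probe sets of Ndufv2 fell by 2.18 ± 0.44 and 2.21 ± 0.34 (adjusted p = 0.0035 and 0.0006 in limma), while Ndufv1 had another bright probe set that rose by 1.63 ± 0.33 (adjusted p = 0.0040) and a dim one at -0.90 ± 0.41 (adjusted p = 0.19). The lower-signal tested probe set of Ndufab1 was at -0.76 ± 0.66. With the mean of all its probe sets Ndufab1 was at -1.14 from 90 to 120 days (adjusted p = 0.27 in limma) and at -0.89 from 60 to 120 days (adjusted p = 0.48), and Ndufv1 was at 0.78 (adjusted p = 0.11) and 1.01 (adjusted p = 0.087), so both genes lost both calls under that rule. For Ndufab1 that mean takes in the dim probe set with signals of 1.1 to 20.6, below the median of every array.

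The hybridization controls moved with this comparison, as given above. With their mean level in the fit, Ndufab1 alone of the 9 kept its call (-2.91, adjusted p = 0.0086 in limma), and the number of all probe sets called went from 1267 to 18. Ndufa3 (1.87), Ndufa1 (-1.33) and Ndufv2 (-1.46) lost the call with a difference no smaller than before, and Ndufv1 was at 1.22, while Ndufs7 (0.51), Ndufa9 (-0.40), Ndufaf1 (-1.19) and Ndufa4 (-0.70) were nearer to 0. Without G93A replicate 1 or 3 at 90 days 4 genes passed in each case, and without G93A replicate 1 at 120 days 3 genes passed, where 554, 583 and 756 of all probe sets were called. In controls over the same ages the values of the 9 genes were not past the threshold. No change of the genotype difference between 90 and 120 days passed it, so a difference between genotypes in these changes was not shown. Control mean log2 signals also rose for Ndufa3 (9.47 to 10.56), Ndufs7 (10.86 to 11.73) and Ndufv1 (10.91 to 11.63). They also fell for Ndufab1 (8.95 to 7.84), Ndufaf1 (7.32 to 6.75), Ndufv2 (11.81 to 11.39) and Ndufa9 (8.81 to 8.60). That of Ndufa4 went the other way (8.91 to 9.32), and that of Ndufa1 was 12.40 at both ages. For the 9 genes with a signal over 12, the change from 90 to 120 days in G93A mice had a median of 0.75 with 8 higher, beside 0.71 for the 69 other genes of that range, and with quantile normalization 0.08 and -0.16. Cell type markers moved in the same comparison. Microglia and macrophage genes had a median change of 1.60 (4 of 12 called higher), with a summed signal of 1960.5 to 4519.3 at 90 days and 12957.7 to 21870.8 at 120 days. Oligodendrocyte genes had a median of 1.15 (2 of 8 called higher), with sums of 9581.3 to 14238.1 and 26286.3 to 39956.5. Motor neuron genes had a median of -0.79 (3 of 11 called lower), with sums of 14535.3 to 16774.6 and 8910.9 to 16534.8. Another 3 of the 11 rose, Isl1 without overlap (38.4, 28.3 and 30.9 to 68.7, 115.4 and 92.5). Of all tested probe sets 3.34% were called higher and 4.3% lower. At 120 days 1 bright gene made up most of each sum. These were Csf1r at 6871.9 to 13708.2, Mbp at 19698.7 to 30393.7 and Nefl at 7745.9 to 14872.2. The part of the cell type markers in the changes of the 9 genes was not tested.

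**Figure D5:**
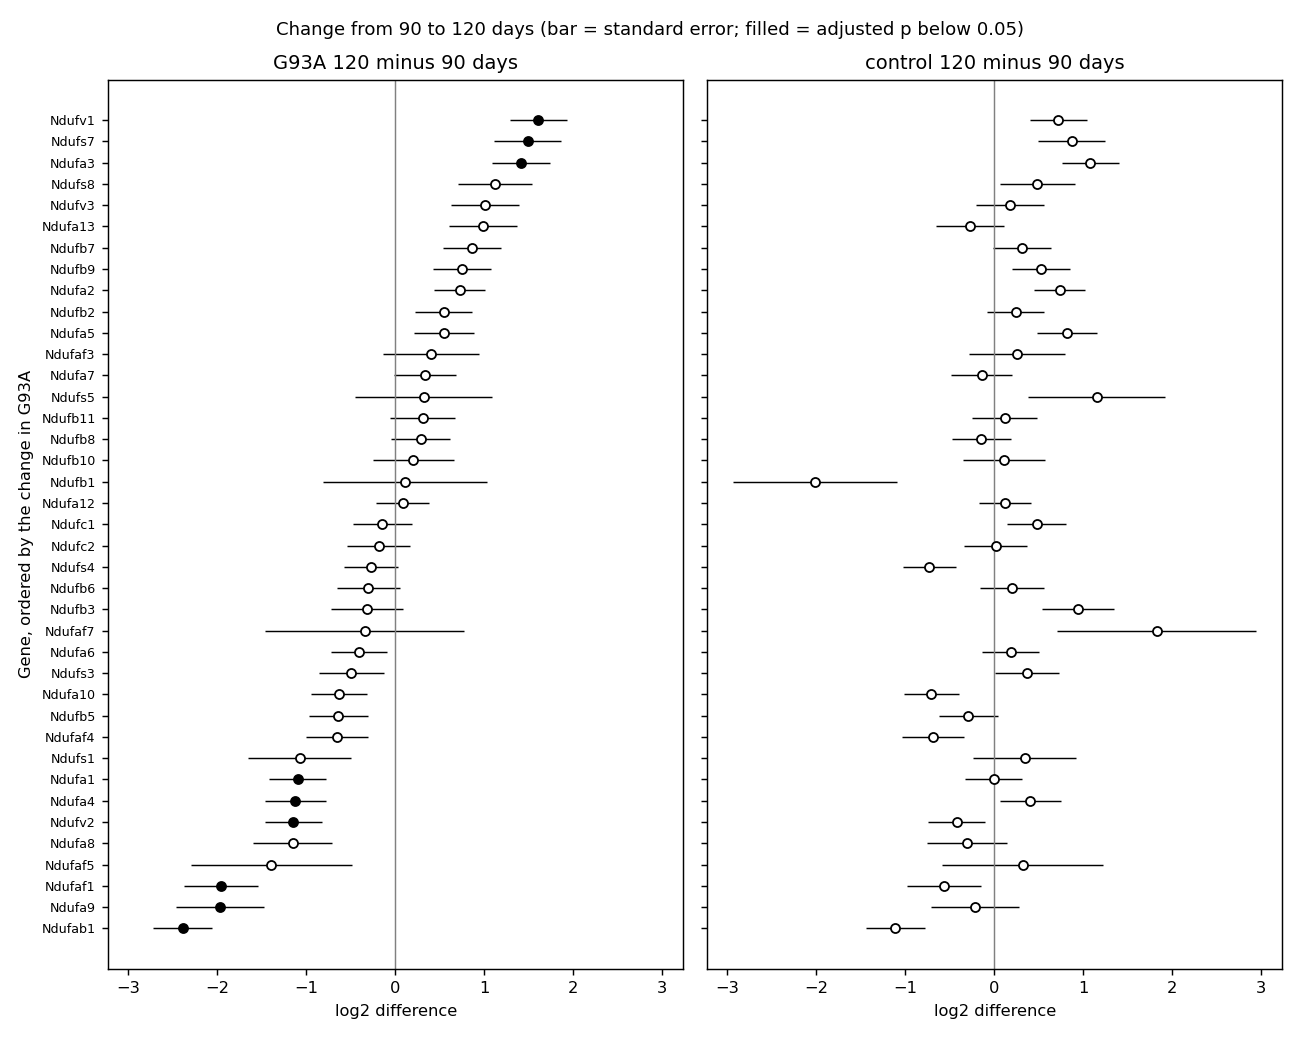
The log2 change from 90 to 120 days of each of the 39 genes in G93A mice (left) and in controls (right), with standard errors as bars (3 animals per group) and genes ordered by the change in G93A mice. Filled points passed an adjusted p of 0.05, which were 9 genes in G93A mice, from Ndufab1 at -2.39 to Ndufv1 at 1.61, and none in controls. Control means moved the same way for most of these 9 genes, and no change of the genotype difference between these ages passed the test.

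Microglial markers had higher signals in G93A mice at 120 days. Of 12 microglia and macrophage genes, all were higher in G93A mice, with a median difference of 1.47. For 9 of them (75%) the groups did not overlap, against 16.1% of all tested probe sets. Aif1 and Itgam did not pass the filter on low signals, which left 10 tested. Lgals3, a galectin of phagocytes, was the only 1 called (8.33%, against 0.0241% of all probe sets). Its mean log2 signal was 9.96 against 5.96 in controls (adjusted p = 0.046 in limma). The summed signal of the 12 genes lay between 12957.7 and 21870.8 on G93A arrays and between 4326.8 and 7325.6 on control arrays. Csf1r made up the largest part of these sums, as Nefl did of the motor neuron sums below. The astrocyte list (10 genes) had a median of 0.22, the oligodendrocyte list (8 of 10 genes measured) 0.09, the interneuron list (10 genes) -0.44 and the endothelium list (7 of 8 genes measured) 0.00. The motor neuron list (11 of 12 genes measured) had a median of -0.95, with a mean log2 signal of 6.69 ± 0.07 (SD, n = 3) in G93A mice and 7.57 ± 0.38 in controls and a summed signal of 8910.9 to 16534.8 and 14633.6 to 29286.1. Their part in the lower signals of Ndufab1, Ndufa1 and other members was not tested. In captured material a smaller share of motor neuron RNA and less of a transcript in each motor neuron cannot be told apart.

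Genes near complex I in function did not pass the test between the genotypes. Of 8 other complex I assembly factors, 4 complex II genes and 11 regulators of mitochondrial genes, 0 passed in limma in a genotype comparison at 60, 90 or 120 days. Of all tested probe sets 0.688%, 0% and 0.0241% passed at these ages. In order of age 0, 0 and 3 of these genes had an unadjusted p below 0.05, against 12.6%, 4.56% and 12.2% of all probe sets. At 120 days those 3 were Sdha, the flavoprotein of complex II (-1.38 ± 0.42, adjusted p = 0.19), Acad9, an assembly factor of complex I related to acyl-CoA dehydrogenases (1.45 ± 0.56, adjusted p = 0.29), and Ppargc1a, a coactivator of mitochondrial biogenesis (1.19 ± 0.51, adjusted p = 0.35). In controls from 60 to 120 days Acad9 fell by 2.03 ± 0.56 (adjusted p = 0.032 in limma). It was 1 of the 8 assembly factors (12.5%), with none called in the other lists, against 6.71% of all probe sets.

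Probe sets of a gene did not always give the same sign. Of 20 genes with several tested probe sets, the sign differed for 9 at 60 days, 14 at 90 days, 5 at 120 days and 9 in the change from 90 to 120 days in G93A mice. At 120 days the 5 were Ndufa7, Ndufaf4, Ndufb9, Ndufs8 and Ndufv1. For 6 genes, Ndufa12, Ndufa3, Ndufb11, Ndufs4, Ndufs8 and Ndufv1, the probe set used carries the suffix that marks possible cross-hybridization. The number of arrays limits the precision: genotype differences had a median standard error of 0.35 for the members and 0.69 over all tested probe sets. Shares of members called thus stand beside a background of lower precision.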

How the data were processed

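Each of the 18 arrays measured RNA amplified from the captured motor neurons of 1 mouse. The deposited table holds 1 linear signal intensity for each probe set, which the authors computed by MAS5, per the submitters' processing notes. No MAS5 version was found there, and no detection calls were used. Each array was found to be scaled to a mean of 100 per array after trimming 2% at each end. Of 22690 probe sets, 64 were controls and 20380 carried 1 symbol, and only these name a gene.

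Signals under 1 (954 values) were set to 1 and put on the log2 scale, with no further normalization. Probe sets above their array's median in at least 3 arrays were tested (16565). Limma 3.58.1 in R 4.3.3 fitted 6 group means over 18 arrays (12 residual degrees of freedom) with a moderated spread that follows the mean level. P-values were adjusted by Benjamini-Hochberg over all 16565 probe sets, and an adjusted p below 0.05 counts as a change. Tests were two-sided, and the script was tested on simulated data. Errors are standard errors of the log2 difference unless marked SD. The array titles give only a sample number within each group. With 1 mouse per array, p-values measure the spread between animals as handled here.

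In each genotype comparison up to 6 members of smallest p without overlap are given per array, with the core subunits and all called members. Ndufb6, Ndufaf3 and Ndufaf7 were named beside that rule after their values were seen, as were members in counts. Alternatives changed the pseudocount (16), the filter, the normalization, the probe set rule, covariates, the replicate block, array weights and each array in turn. The members and lists were chosen with earlier results of these data known. Same-numbered arrays of different groups did not deviate together (45 pairs, median correlation 0.0014). Promoter sequences are from RefSeq.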

Additional observations from a re-analysis of the deposited data

Results flagged for a closer look

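In 6 cases the genotype difference of a complex I gene changed between ages. By limma's test of the change itself, Ndufa1 (-2.36, 120 minus 60 days, adjusted p = 0.0095) and Ndufab1 (-2.03, 120 minus 60 days, adjusted p = 0.029) passed. In 4 others the G93A arrays all lay on one side of the controls at 1 age and all on the opposite side at another, and the test of the change was not passed. These were Ndufa13 (1.72, 120 minus 60 days, adjusted p = 0.096 in limma), Ndufb5 (-1.60, 120 minus 60 days, adjusted p = 0.074), Ndufa3 (-1.70, 90 minus 60 days, adjusted p = 0.72) and Ndufaf1 (-1.39, 120 minus 90 days, adjusted p = 0.43). Ndufa1 also lay on opposite sides at 60 and 120 days.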

How the results depend on the processing

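For G93A minus control the number of the 39 genes called was 0 at each age. It was 1 at 60 days with quantile normalization, and at 120 days 1 with a pseudocount of 16, with median centring or without the 2 controls of lowest correlation, and 2 with the hybridization-control covariate. Leaving out 1 array gave 0 at 60 and 90 days and 0 to 2 at 120 days. For the change from 60 to 120 days in the genotype difference, 2 became 5 with median centring and 0 without the 2 controls, and 1 to 3 without single arrays. For controls from 60 to 120 days, 3 became 6 with quantile normalization, 11 with median centring, 7 with the hybridization-control covariate, 1 with the Gapdh covariate and 0 without the 2 controls, and 1 to 4 without single arrays. Over all probe sets 1112 calls became 945, 1570, 1803, 143 and 141 under these settings. For controls from 60 to 90 days, 1 became 0 with the replicate block (Ndufa1 at 1.28, adjusted p = 0.056 in limma), with array weights, with the hybridization-control covariate, with the mean of all probe sets or without the 2 controls, and 0 to 2 without single arrays. For G93A from 60 to 120 days, 2 became 4 with quantile normalization, 1 with the hybridization-control covariate and 0 with the mean of all probe sets, and 1 to 2 without single arrays. For G93A from 90 to 120 days, 9 became 1 with the hybridization-control covariate (all probe sets, 1267 to 18), and 3 to 9 without single arrays. Replicate numbers name different animals and do not pair them. With the replicate block Ndufa4 from 90 to 120 days in G93A mice was at an adjusted p of 0.051.

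The median genotype difference of the 39 genes at 60 days, -0.05, was 0.18 with median centring, -0.40 without the 2 controls and -0.20 to 0.11 without single arrays. At 90 days, -0.16 became -0.0035 with median centring, 0.027 without cross-hybridizing probe sets and 0.073 with the mean of all probe sets, and -0.21 to -0.03 without single arrays. At 120 days, -0.15 became 0.0025 with quantile normalization and -0.47 with median centring, and -0.31 to -0.068 without single arrays. Median centring moved the median of all tested genes to 0.16, 0.14 and -0.25 at the 3 ages, and relative to these the 39 genes stood at 0.02, -0.14 and -0.21 as without it. With quantile normalization that value at 120 days was 0.07, so the sign of the list's shift depends on the scaling. Accessory minus core at 60 days, 0.32, was 0.51 with the Gapdh covariate, 0.12 with class means, -0.19 without the 2 controls and 0.18 to 0.60 without single arrays. At 90 days, -0.11 became -0.51 without cross-hybridizing probe sets and -0.29 with the mean of all probe sets, and -0.14 to -0.01 without single arrays, and at 120 days -0.23 to 0.10 without single arrays. Among the gene differences run through the alternatives, none of those that passed the test reversed. Those not past it reversed as follows. At 60 days Ndufa13 was at 0.0080 with quantile normalization, Ndufs3 at 0.18 with median centring, 0.074 with array weights and 0.30 without the 2 controls, and without single arrays Ndufs3 ran from -0.39 to 0.47 and Ndufv2 from -0.025 to 0.50. At 90 days the Gapdh covariate gave -0.0055 for Ndufa9 and -0.31 for Ndufs1. At 120 days median centring gave -0.19 for Ndufs7, -0.18 for Ndufs8 and -0.039 for Ndufv3, and the mean of all probe sets -0.021 for Ndufs8. Without single arrays these ran from -0.32 to 0.42, -0.31 to 0.38 and -0.11 to 0.62. The cause of these shifts was not tested.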
